A study of Mus musculus with 6 samples.

Results

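Splicing factor and spliceosome genes were examined in pre-B cells, bone marrow B-lymphoid progenitors that have left the pro-B stage and are rearranging their immunoglobulin light chain genes. The genes were taken by name from an expression array: Srsf genes, Sf3a and Sf3b genes, U2af genes, Snrp genes, Lsm genes, Prpf genes, Hnrnp genes, and Rbm5, Rbm17, Rbm22 and Rbm39. Of 17372 genes with a single symbol in the deposited table, 75 carried such a name. The naming rule holds no measured value, but it was chosen with earlier results of these data known. Rbm10 and Rbm25 were not analysed here. Where a gene had several probe sets, the brightest over all arrays stood for it. A total of 72 of the 75 genes had a mean above a filter on dim signals (log2 of 7.26, the 40th percentile of all probe sets), as did 11271 genes in all, and these were tested. The remaining 3 genes, Srsf12, Sf3b6 and Hnrnpd, were below it. Hnrnpdl and Snrpb2 passed through the control arrays alone, since their Mef2c-deficient means lay under the filter, so their groups had to differ for them to pass.

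The array study compared pre-B cells of mice without Mef2c, the gene of a transcription factor of the MADS-box family, with those of control mice, to find the expression programmes that depend on this factor. Vav-Cre Mef2c fl/fl mice, in which the Vav promoter drives Cre in blood-forming cells so that the deletion is not confined to B cells, gave the 3 Mef2c-deficient arrays. The methods name Mef2c fl/fl, Mef2c fl/+ and Vav-Cre Mef2c fl/+ mice as controls without saying which gave the 3 control arrays, so some control mice may have carried Cre and a deleted copy. All mice were 9 months old, and pre-B cells had been sorted as B220+ IgM- CD43- bone marrow cells with no further treatment. The samples are called independent but the animals are not named, so p-values measure the spread between these samples, and n is 3 arrays per group throughout.

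Splicing removes introns from precursor RNA in a pair of cutting and joining steps carried out by the spliceosome. The U1 particle marks the start of an intron, U2AF and the U2 particle with its SF3a and SF3b subunits mark its end and branch site, and the U4/U6.U5 particle then joins and is rebuilt into the catalytic centre. SR proteins and hnRNP proteins bind the RNA around splice sites and bias which sites are used, and in B-lineage cells alternative processing also sets which forms of immunoglobulin and surface receptor transcripts are made.

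The median deposited value was 236 to 285 per array. The median SD of a splicing gene between arrays of a group was 0.281 on the log2 scale in controls and 0.370 in Mef2c-deficient samples, against 0.305 and 0.515 over all genes tested. Mef2c itself was not analysed here. Of 12 pre-B cell markers 10 were measured, and their summed level was 21.01 to 21.35 (log2) in controls and 20.44 to 21.10 in Mef2c-deficient arrays. Means were lower for 9 of these 10 markers, with medians of -0.37, -0.86 and -0.94 in Mef2c-deficient replicates 1 to 3 relative to the control mean. Markers of other cells had higher means in Mef2c-deficient samples: 9 of 9 measured plasmacytoid dendritic cell genes, summed at 13.79 to 16.29 in controls and 15.41 to 19.79 in Mef2c-deficient arrays, 7 of 7 neutrophil genes (15.05 to 17.39 against 15.48 to 20.27), 4 of 4 monocyte genes (15.36 to 16.09 against 15.85 to 18.17), 3 of 3 measured T-cell genes (8.84 to 10.55 against 10.44 to 14.00) and both measured erythroid genes (7.79 to 9.08 against 8.07 to 10.46). Plasma cell genes had summed levels of 15.56 to 15.95 and 15.42 to 16.03. Only 1 of the T-cell genes (Cd4) and 1 of the erythroid genes (Alas2) passed the filter on dim signals, so the T-cell sum is mostly Cd4. The filter was passed by 6 neutrophil, 3 monocyte and all 9 dendritic cell genes. No marker was read as absent, since the table holds no detection calls. Mef2c-deficient replicate 3 had the highest sum for the dendritic, neutrophil, monocyte, T-cell and erythroid lists, and the part of these markers in the splicing results was not tested.

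In Mef2c-deficient pre-B cells, the means of most splicing genes were lower. The mean was lower for 62 of the 72 genes (86.1%) and higher for 10, while 62.3% of all genes tested had a lower mean. After further scalings of the arrays, 44 to 55 of the 72 means were lower. The highest log2 difference was 0.81, in Rbm39. The lowest was -2.45, in the RNA-binding protein gene Hnrnpdl, whose 3 Mef2c-deficient values lay under the filter, where background limits the size of a difference. Among genes above the filter in both groups it was -1.92, in Sf3a1. The median log2 difference was -0.69, compared with -0.36 over all genes tested, so that the splicing genes lay 0.33 below the general shift (median relative to all genes of -0.33). This offset was -0.76 without a filter and -0.14 with the filter at the 60th percentile. All deposited values are treated as powers of 2. If the base was e, which the files do not settle, each log2 difference is multiplied by 0.693 and the median becomes -0.48.

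None of these differences passed the adjusted threshold of 0.05. With limma, 0 of the 72 genes had an adjusted p below it (all genes tested: 2 genes, 0.0177%). The smallest adjusted p was 0.0745, in Hnrnpdl, which passed the filter through the controls alone. At an unadjusted p below 0.05, 26 genes (36.1%), Hnrnpdl among them, were lower and 0 were higher, against 20.9% of all genes lower and 5.32% higher. The methods' t-test gave 25 lower, 1 higher and 0 after Benjamini-Hochberg adjustment. With that test, 16.9% of all genes were lower and 5.69% higher, and 0 passed after adjustment. All 3 Mef2c-deficient values lay below all 3 control values in 34 genes (47.2%) and above them only in Snrpn, against 27.1% and 10.6% of all genes tested. At an unadjusted p of 0.05 or less with at least a 2-fold difference, 14 genes (19.4%) were lower and 0 higher, against 14.7% and 2.64%. These 2-fold counts assume base 2. With base e fewer genes would reach 2-fold, since Srsf4 and Snrpa1, for example, would have log2 differences of -0.89 and -0.90.

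The excess of lower genes depended on how the arrays were scaled. Lower and higher calls at the unadjusted threshold numbered 26 and 0 on the values as deposited, 12 and 0 after a further quantile normalization, 13 and 2 after centring on the kept probe sets, 7 and 3 after centring on the genes tested, and 5 and 1 after cyclic loess. These scalings moved the median of all genes from -0.36 to -0.10, -0.07, 0.10 and -0.04, and the share of all genes called lower to 11.1%, 10.7%, 6.48% and 10.2%. After cyclic loess the share of splicing genes called lower (6.94%) was below that of all genes. In all 5 scalings, 4 of the 72 genes (5.56%) were lower at the unadjusted threshold, a share near the 6.09% of all genes (686 of 11260 tested in each scaling). They were Sf3a1, Srsf4, Prpf18 and Hnrnpdl, the last of which passed the filter through the controls alone. Relative to the median of all genes, the median of the splicing genes was -0.33, -0.28, -0.33, -0.33 and -0.23 in the same order.

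**Figure D1:**
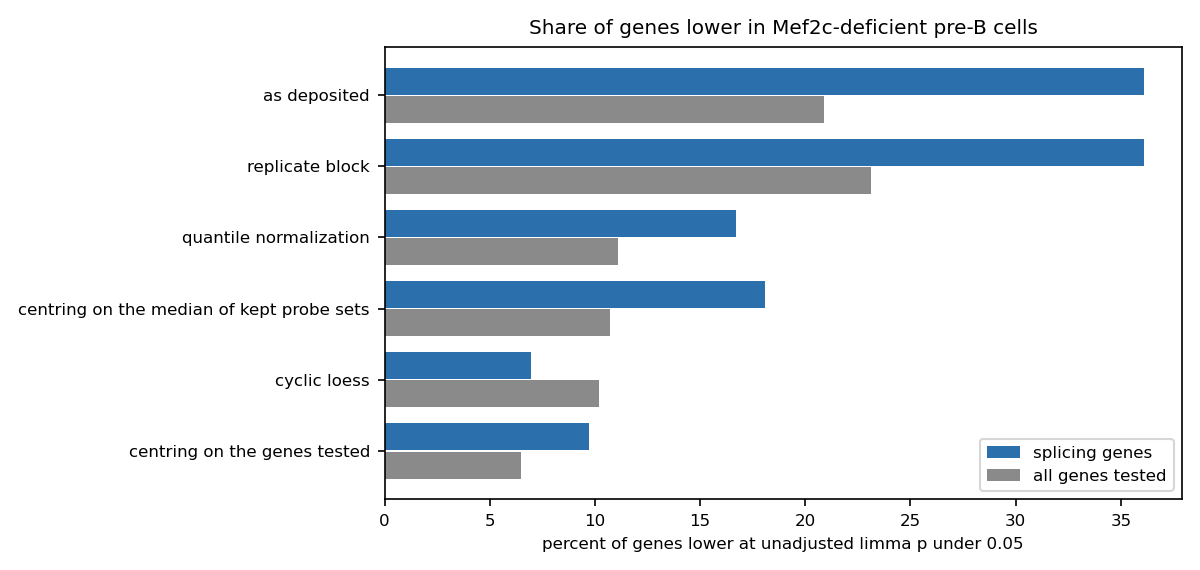
Percentage of genes lower in Mef2c-deficient pre-B cells at an unadjusted limma p below 0.05 (horizontal axis, starting at 0), for the 72 splicing genes (blue) and all genes tested (grey), under 6 settings. The share of splicing genes ran from 36.1% on the deposited values to 6.94% after cyclic loess, where it was below the 10.2% of all genes.

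**Figure D2:**
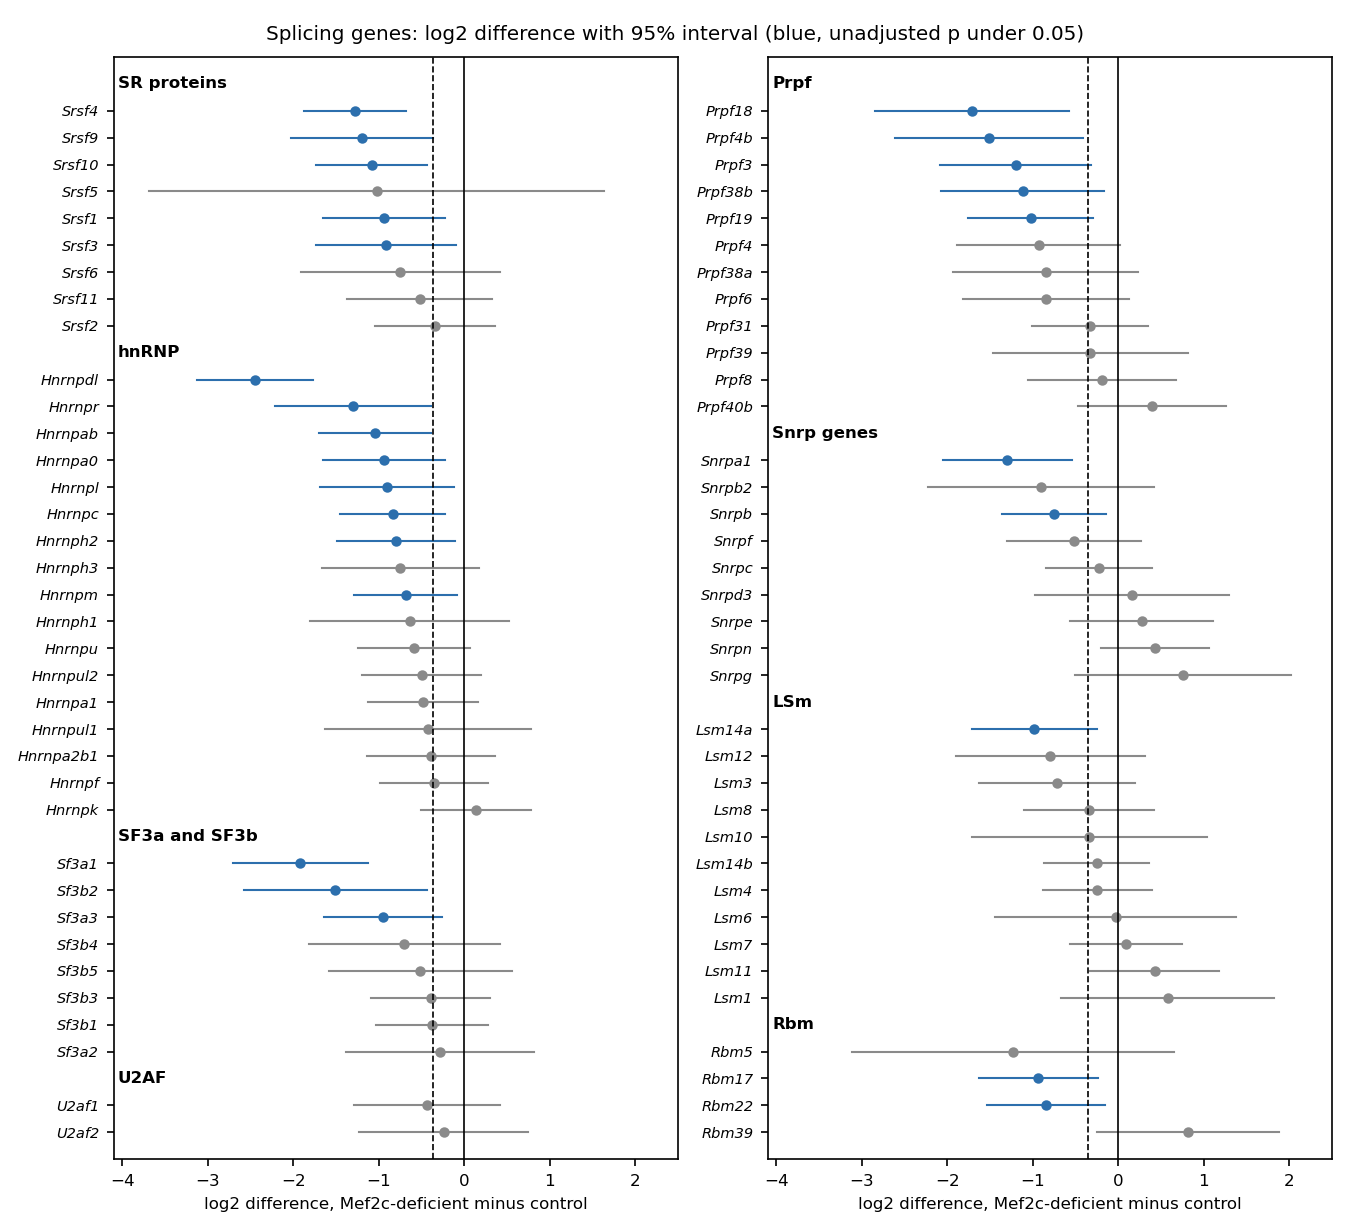
Log2 difference (Mef2c-deficient minus control, horizontal axis) of each of the 72 tested splicing genes with its 95% interval from limma, grouped by role, n = 3 arrays per group, with blue for an unadjusted p below 0.05 and a dashed line at the median of all genes tested (-0.36). Most points lie left of 0, and the SR protein and Prpf groups hold more points left of the dashed line than the Snrp and LSm groups do.

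Brightness moved with the difference. When the genes tested were split into 5 equal bins by mean signal, the median difference of all genes was 0.32 in the dimmest bin, 0.061 in the next, and -0.56, -0.68 and -0.51 in the brighter ones. A total of 45 of the 72 splicing genes were in the brightest bin, where their median was -0.58 against -0.51 for all genes. In the bin below it, 12 splicing genes had a median of -0.84 against -0.68, and in the middle bin, 8 had a median of -0.85 against -0.56. The dimmest bin held 3 splicing genes with a median of -0.90, and the next 4 with a median of -0.043.

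**Figure D3:**
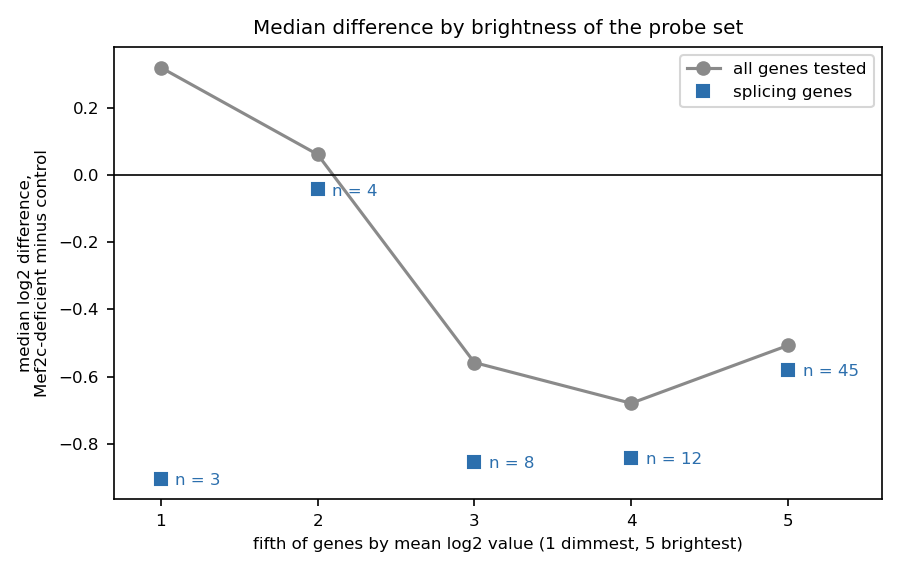
Median log2 difference (Mef2c-deficient minus control, vertical axis) in 5 bins of the genes tested ordered by mean log2 value (horizontal axis, 1 dimmest), for all genes (grey line) and for splicing genes (blue squares, with their number). In the brightest bin, which holds 45 of the 72 splicing genes, the medians were -0.58 and -0.51.

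The 5 promoter windows shown belong to the 3 tested genes with the smallest p and to the 2 with the most positive differences. They are the 250 bases before the annotated start in RefSeq (GRCm38.p6), 5′ to 3′ on the strand of the gene: Hnrnpdl at chr5:100039223-100039472 (minus strand), Sf3a1 at chr11:4160104-4160353 (plus), Srsf4 at chr4:131873387-131873636 (plus, the first of 3 windows), Rbm39 at chr2:156180239-156180488 (minus, the first of 2 windows) and Snrpg at chr6:86371290-86371539 (plus). Capitals mark CCGGAAG, a core that Ets factors bind, or CCAAT, the box bound by NF-Y, each in either orientation, so that CTTCCGG and ATTGG are the same motifs on the other strand.
Hnrnpdl: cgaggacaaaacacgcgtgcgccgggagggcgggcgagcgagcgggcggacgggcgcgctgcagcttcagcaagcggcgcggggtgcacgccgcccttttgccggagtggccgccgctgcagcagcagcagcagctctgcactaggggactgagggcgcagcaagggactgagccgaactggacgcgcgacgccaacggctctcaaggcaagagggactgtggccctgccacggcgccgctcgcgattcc
Sf3a1: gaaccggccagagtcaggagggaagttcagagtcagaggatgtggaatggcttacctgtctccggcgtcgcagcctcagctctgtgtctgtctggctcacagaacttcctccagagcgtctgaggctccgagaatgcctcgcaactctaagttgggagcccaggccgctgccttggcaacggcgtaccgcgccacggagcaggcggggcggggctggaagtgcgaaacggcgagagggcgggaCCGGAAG
Srsf4: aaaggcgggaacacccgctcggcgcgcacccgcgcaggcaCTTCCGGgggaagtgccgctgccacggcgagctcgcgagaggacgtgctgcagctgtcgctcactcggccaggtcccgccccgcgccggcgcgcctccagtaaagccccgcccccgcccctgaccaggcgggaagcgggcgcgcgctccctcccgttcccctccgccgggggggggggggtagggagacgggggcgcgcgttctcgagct
Rbm39: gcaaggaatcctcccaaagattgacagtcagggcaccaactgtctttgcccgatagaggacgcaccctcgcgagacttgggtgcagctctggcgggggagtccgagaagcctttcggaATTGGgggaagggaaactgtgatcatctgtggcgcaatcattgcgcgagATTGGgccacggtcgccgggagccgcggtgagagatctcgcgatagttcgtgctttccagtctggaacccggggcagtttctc
Snrpg: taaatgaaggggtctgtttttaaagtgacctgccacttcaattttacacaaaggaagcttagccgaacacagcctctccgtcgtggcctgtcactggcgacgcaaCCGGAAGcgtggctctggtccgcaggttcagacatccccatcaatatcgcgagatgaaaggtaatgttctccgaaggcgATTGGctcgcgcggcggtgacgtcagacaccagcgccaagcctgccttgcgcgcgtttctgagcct
The Hnrnpdl window held no searched motif, the Sf3a1 window ended in CCGGAAG, and the Srsf4 window held CTTCCGG. The windows of both genes with higher means held ATTGG, at 2 places in Rbm39, and that of Snrpg also held CCGGAAG.

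Motifs were counted in the 250 bases before each annotated start, both for the splicing genes and genome-wide. RefSeq windows were found for 65 of the 75 genes, as 87 windows, since 14 genes have several starts whose windows can overlap. CCGGAAG, searched on both strands, was in 24.1% of these windows against 6.91% of 32851 windows genome-wide, and CCAAT was in 47.1% against 33.8%. TTTCCCGC, an E2F-type motif, was in 6.90% against 0.895%, and CAGGTG, an E-box that E proteins bind, was in 12.6% against 17.2%. The MEF2 consensus was in 1 window (1.15%), that of Srsf3, against 0.508%. Genes called lower at the unadjusted threshold had 29 windows (23 genes) and the other splicing genes 58 windows (42 genes). CCGGAAG was in 9 (31.0%) and 12 (20.7%) of these windows and CCAAT in 14 (48.3%) and 27 (46.6%). TTTCCCGC was in 3 (10.3%) and 3 (5.17%), and CAGGTG in 3 (10.3%) and 8 (13.8%). A match only describes the letters of the window.

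SR proteins, which bind exonic enhancers and recruit the U1 particle and U2AF, had lower means in all 9 tested genes. A total of 5 of them were lower at the unadjusted threshold (all genes tested: 20.9%) and the median difference was -0.93, or -0.58 relative to all genes. The 5 calls became 3 after quantile normalization, 2 after cyclic loess, 3 after centring on the kept probe sets and 1 after centring on the genes tested. Of all genes, 11.1%, 10.2%, 10.7% and 6.48% were called lower in the same order. In each of these scalings, 8 or 9 of the 9 SR protein means were lower. Srsf4, the longest of the classical SR proteins, was 16.54, 16.39 and 16.45 (log2) in control replicates 1 to 3 and 15.21, 15.26 and 15.08 in Mef2c-deficient replicates. The groups were far apart and each was tight, with a difference of -1.28 ± 0.26 (SE) and an adjusted p of 0.0890. Srsf10, which represses splicing when it is dephosphorylated, was 12.06, 12.15 and 11.95 in controls and 11.15, 10.66 and 11.10 in Mef2c-deficient samples, a difference of -1.08 ± 0.28 with no overlap. Srsf9, a short member of the family, differed by -1.19 ± 0.35, and in both groups its replicate 3 was the highest value (15.71 and 14.54). Srsf1, the founding member, was 10.36, 9.97 and 10.76 in controls and 9.28, 9.54 and 9.48 in Mef2c-deficient samples, a difference of -0.93 ± 0.31. Srsf3, the smallest, differed by -0.91 ± 0.35. The remaining tested genes overlapped between groups, with differences of -1.02 (Srsf5), -0.74 (Srsf6), -0.52 (Srsf11) and -0.34 (Srsf2), of which Srsf2 turned to a slightly higher mean under cyclic loess (0.077) and centring on the genes tested (0.12). Without Mef2c-deficient replicate 3 these became 0.44 (Srsf5), -0.24 (Srsf6), -0.24 (Srsf11) and -0.15 (Srsf2). Srsf12 lay below the filter on every array, at 2.24 to 2.67 in controls and 2.29 to 2.93 in Mef2c-deficient samples.

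SF3a and SF3b, which place the U2 particle on the branch site, had lower means in all 8 tested genes on the deposited values, in 7 after quantile normalization and centring on the kept probe sets, and in 5 after cyclic loess and centring on the genes tested. The median difference was -0.60, and 3 genes were lower at the unadjusted threshold (all genes tested: 20.9%). After each further scaling 1 or 2 were called lower, where the share of all genes was 6.48% to 11.1%. Sf3a1, a scaffold subunit of SF3a, was 11.19, 11.45 and 11.88 in controls and 10.07, 9.38 and 9.32 in Mef2c-deficient samples. This difference of -1.92 ± 0.34 (adjusted p = 0.0769, 3.77-fold lower if the base is 2) was the second largest among the 72 genes. With base e the log2 difference of Sf3a1 would be -1.33. Sf3b2, which contacts the RNA near the branch site, was 13.84, 13.63 and 14.09 in controls and 12.90, 12.81 and 11.33 in Mef2c-deficient samples. Its difference of -1.50 ± 0.46 became -0.997 without the third Mef2c-deficient array. Sf3a3, the third SF3a subunit, differed by -0.95 ± 0.30 with no overlap. Sf3b1, the large subunit that clamps the branch helix and is often mutated in myeloid disease, differed by -0.37, and its 95% interval of -1.02 to 0.28 included 0. The others differed by -0.70 (Sf3b4), -0.51 (Sf3b5), -0.39 (Sf3b3) and -0.28 (Sf3a2), with intervals that included 0, and Sf3a2 had a higher mean after each further scaling (0.010 to 0.26). Sf3b6, which touches the branch adenosine, was below the filter on all arrays, at 5.39 to 5.80 and 4.88 to 5.42.

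The U2AF genes gave no call and no settled direction. U2af2, which reads the polypyrimidine tract, was 13.87, 13.16 and 14.77 in controls and 13.67, 13.69 and 13.73 in Mef2c-deficient samples, a difference of -0.24 (95% interval -1.23 to 0.75). U2af1, which reads the AG at the end of the intron, differed by -0.43 (-1.28 to 0.42). The Mef2c-deficient values of U2af2 lay inside the control range, and both genes had higher means after cyclic loess (0.29 and 0.084) and after centring on the genes tested (0.22 and 0.030).

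The Snrp genes were split. Means were lower in 5 and higher in 4 of the 9 genes, and the median of -0.23 was 0.13 above that of all genes and turned positive after every further scaling (0.07 to 0.23). Snrpa1, a protein specific to the U2 particle, was 13.66, 13.24 and 13.57 in controls and 12.18, 11.76 and 12.63 in Mef2c-deficient samples, a difference of -1.30 ± 0.33 (adjusted p = 0.106). Snrpb2, the partner of Snrpa1 in the same particle, was 8.37, 7.83 and 8.26 in controls and spread from 6.01 to 8.33 in Mef2c-deficient samples, so that the groups overlapped (difference -0.90 ± 0.57, or -1.44 without Mef2c-deficient replicate 3). Snrpb, which encodes the shared SmB ring protein, differed by -0.75 ± 0.26 with no overlap. Its close relative Snrpn, an imprinted gene best known in neurons, was the only gene whose groups were apart in the other direction, at 7.33, 7.35 and 7.24 in controls and 7.97, 7.50 and 7.74 in Mef2c-deficient samples. Snrpn differed by 0.43 ± 0.27, close to the filter level, with an adjusted p of 0.300.

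The other Sm ring genes had values with little in common. Snrpg was 17.61, 17.45 and 15.62 in controls and 17.53, 17.96 and 17.45 in Mef2c-deficient samples, so its higher mean (difference 0.76 ± 0.54) rested on a low control replicate 3, without which it was 0.12. Control replicate 3 was also the lowest of all arrays for Snrpe (17.48, 17.74 and 16.76 in controls, 17.84, 17.20 and 17.75 in Mef2c-deficient samples, difference 0.27). Snrpd3 differed by 0.16 and Snrpf by -0.52, both with overlap. The higher mean of Snrpd3 rested on Mef2c-deficient replicate 3 (15.89, against 14.24 and 14.48 on the other Mef2c-deficient arrays), without which the difference was -0.35. Snrpc, a protein of the U1 particle that stabilises its pairing with the intron start, differed by -0.23 (95% interval -0.85 to 0.39).

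The Lsm genes had a median difference of -0.25, which was 0.11 above that of all genes and positive after every further scaling (0.03 to 0.22). Only Lsm14a was lower at the unadjusted threshold, and none was after a further scaling. It was measured at 15.16, 15.42 and 14.68 in controls and 14.37, 14.06 and 13.90 in Mef2c-deficient samples (difference -0.98 ± 0.31). Lsm14a is a translational repressor of cytoplasmic RNA granules and not a spliceosome subunit. The ring proteins that hold the U6 RNA differed by -0.72 (Lsm3), -0.35 (Lsm8), -0.25 (Lsm4), -0.03 (Lsm6) and 0.09 (Lsm7), each with overlapping groups. Lsm6 was 15.03 in Mef2c-deficient replicate 3 and 12.89 and 12.79 in the others, and without replicate 3 it differed by -0.76, while its second probe set differed by -0.86 over all arrays. Lsm3 was 14.81, 14.84 and 14.70 in controls and ran from 13.34 to 14.75 in Mef2c-deficient samples. Lsm1, which replaces Lsm8 in the ring that acts in messenger RNA decay, had a higher mean (difference 0.58) resting on replicate 3 (8.45, 9.28 and 10.54 in Mef2c-deficient samples), without which it was 0.021. Of the subunits specific to the U7 particle, which processes histone transcripts, Lsm11 differed by 0.42 and Lsm10 by -0.34 (-0.84 without Mef2c-deficient replicate 3). Lsm12 and Lsm14b differed by -0.79 and -0.25.

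The Prpf genes had lower means in 11 of 12 cases on the deposited values and in 8 to 10 after the further scalings. A total of 5 were lower at the unadjusted threshold (all genes tested: 20.9%), and the median was -0.89, or -0.53 relative to all genes. The calls numbered 2 after quantile normalization, 1 after cyclic loess, 4 after centring on the kept probe sets and 1 after centring on the genes tested. Of all genes, 11.1%, 10.2%, 10.7% and 6.48% were called lower in the same order. Prpf18, which acts in the second step of splicing, was 12.64, 12.60 and 12.59 in controls and 11.12, 11.75 and 9.81 in Mef2c-deficient samples. The controls were within 0.1 of each other while the Mef2c-deficient values were spread, and the difference was -1.72 ± 0.49 (adjusted p = 0.116), or -1.18 without replicate 3. Prpf19, the ubiquitin ligase at the core of the complex that activates the spliceosome, was 16.93, 17.22 and 17.75 in controls and 16.39, 16.37 and 16.07 in Mef2c-deficient samples, a difference of -1.03 ± 0.32, and its dimmer probe set differed by -0.32. Prpf4b, a kinase of the tri-snRNP, differed by -1.51 ± 0.47 and Prpf3, a U4/U6 protein, by -1.20 ± 0.38, both with no overlap. Prpf38b differed by -1.12 ± 0.41. The U4/U6 protein Prpf4 (-0.93), the U5 bridge Prpf6 (-0.85) and Prpf38a (-0.85) had unadjusted p-values of 0.0533, 0.0790 and 0.107, and Prpf4 passed the unadjusted threshold with a replicate block. Prpf31, which binds U4 RNA, and Prpf39, a U1-associated protein, each differed by -0.33, and Prpf39 by 0.17 without Mef2c-deficient replicate 3. Prpf8, the protein that surrounds the catalytic centre, was 14.50, 14.30 and 15.24 in controls and 14.30, 14.21 and 14.96 in Mef2c-deficient samples, a difference of -0.19 (95% interval -1.05 to 0.67). The exception in direction was Prpf40b, a U1-associated protein, at 0.40 ± 0.37, or 0.73 without Mef2c-deficient replicate 3.

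The hnRNP genes, whose proteins coat nascent RNA and often repress splice sites, had lower means in 16 of 17 tested genes (13 to 16 after the further scalings). No overlap between groups was seen in 13 (all genes tested: 27.1% apart and lower), and 8 were lower at the unadjusted threshold (all genes: 20.9%). The 8 calls became 4 after quantile normalization, 1 after cyclic loess, 3 after centring on the kept probe sets and 2 after centring on the genes tested. Of all genes, 11.1%, 10.2%, 10.7% and 6.48% were called lower in the same order. Hnrnpdl, a relative of the AU-rich element binding protein Hnrnpd, was 8.71, 8.70 and 9.10 in controls and 6.25, 6.70 and 6.21 in Mef2c-deficient samples. All of its Mef2c-deficient values lay under the filter level of 7.26, so the size of the difference is limited by background and no fold is given. The fitted difference was -2.45 ± 0.29 (adjusted p = 0.0745). Without Mef2c-deficient replicate 3 it was -2.36 with an adjusted p of 0.0432, in a fit where 241 of 11260 genes passed the adjusted threshold. Hnrnpdl passed the filter through the controls alone, so neither p-value can be taken as support for a difference. Hnrnpd itself was not tested, and its 6.46, 6.81 and 8.63 in controls were above the 5.75, 5.34 and 5.88 of Mef2c-deficient samples, with control replicate 3 standing well above the rest.

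Further hnRNP genes differed less. Hnrnpab, another relative of Hnrnpd, was 11.60, 11.49 and 12.04 in controls and 10.67, 10.70 and 10.63 in Mef2c-deficient samples (difference -1.04 ± 0.28). Its Mef2c-deficient values were within 0.1 of each other. Hnrnpr differed by -1.30 ± 0.39, and its second probe set, below the filter, by -0.74. Hnrnpc, which binds uridine tracts and keeps cryptic exons out, differed by -0.84 ± 0.26, at 11.62, 11.68 and 11.65 in Mef2c-deficient samples. Hnrnpa0 (-0.94), Hnrnpl (-0.90), whose protein controls CD45 exons in lymphocytes, Hnrnph2 (-0.80) and Hnrnpm (-0.68) were also apart between groups and lower at the unadjusted threshold, which Hnrnpm missed with a replicate block. Hnrnpul2 (-0.49), Hnrnpa1 (-0.48), Hnrnpf (-0.35), Hnrnph3 (-0.74) and Hnrnpu (-0.58) had no overlap but an unadjusted p above 0.05, and Hnrnph3 differed by -0.36 without Mef2c-deficient replicate 3. The probe sets of Hnrnpu, a scaffold of nuclear RNA and chromatin, disagreed in sign, with the dimmer one at 0.38. Hnrnph1 (-0.63), Hnrnpul1 (-0.42) and Hnrnpa2b1 (-0.38) overlapped between groups, and Hnrnpk, a poly-C binding protein, had a slightly higher mean (0.14, 95% interval -0.51 to 0.78).

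The Rbm genes differed in direction. Rbm17, which binds at the end of the intron, was 16.27, 16.06 and 16.75 in controls and 15.52, 15.53 and 15.23 in Mef2c-deficient samples, a difference of -0.93 ± 0.30. Rbm22, a protein of the catalytic core, differed by -0.85 ± 0.30 with no overlap. Rbm39, a U2AF-related splicing factor, had the most positive difference of all 72 genes, 0.81 ± 0.46 (adjusted p = 0.265). It was 15.85, 15.65 and 14.44 in controls and 15.99, 16.66 and 15.72 in Mef2c-deficient samples, so the groups overlapped, and without the low control replicate 3 the difference was 0.38. Rbm39 was higher at the unadjusted threshold after cyclic loess and after both centrings, but not on the deposited values or after quantile normalization.

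**Figure D4:**
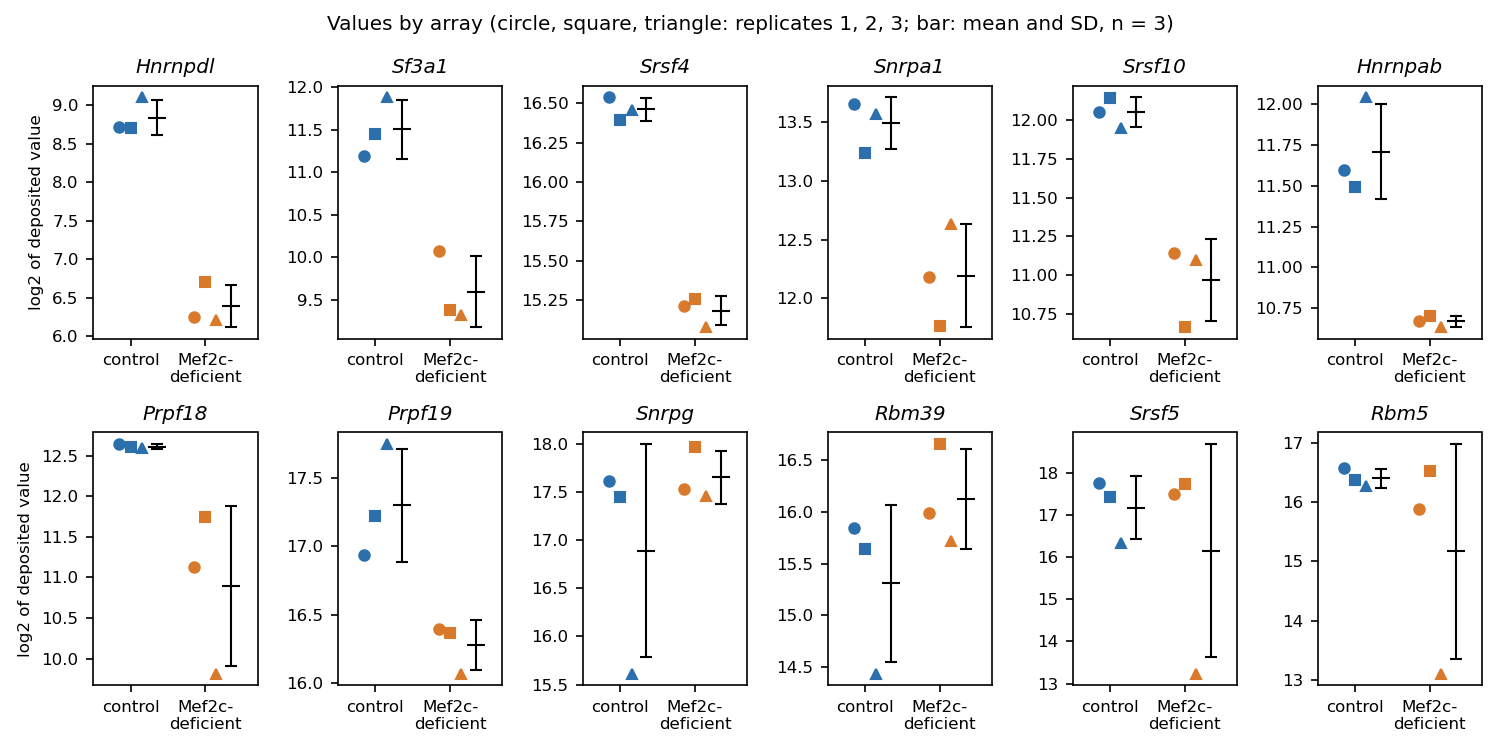
Log2 of the deposited value (vertical axis, scaled separately in each panel) of 12 splicing genes on each array, with blue for control and orange for Mef2c-deficient samples, circle, square and triangle for replicates 1, 2 and 3, and bars for mean and SD (n = 3). The groups are apart for Hnrnpdl, Sf3a1, Srsf4, Snrpa1, Srsf10, Hnrnpab, Prpf18 and Prpf19, while Srsf5 and Rbm5 show a single low array, Mef2c-deficient replicate 3 (13.24 and 13.11).

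Some splicing genes had a single low Mef2c-deficient array, a pattern picked out after the values were seen. Srsf5, an SR protein, was 17.77, 17.44 and 16.34 in controls and 17.50, 17.74 and 13.24 in Mef2c-deficient samples. Rbm5, a regulator of exon choice in death-receptor transcripts, was 16.58, 16.37 and 16.27 in controls and 15.88, 16.52 and 13.11 in Mef2c-deficient samples. Without replicate 3 their differences went from -1.02 to 0.44 and from -1.23 to -0.20, and that of Hnrnph1 from -0.63 to -0.06. Replicate 3 was more than 1 log2 unit, on base 2, below both other Mef2c-deficient arrays in 8 of the 72 genes (11.1%). The share of all genes tested was 10.1%. Replicate 3 was as far above both in 5 (6.94%), against 10.5% of all genes. The 5 genes above were Lsm6, Lsm1, Lsm10, Snrpd3 and Prpf38a, and without it Prpf38a differed by -1.36. Among other splicing genes it was below in 23 of 117 (19.7%), with the SR protein kinases Clk1, Clk2 and Clk4, the U1 protein gene Snrnp70, Rbmx and Arglu1 among the lowest. Without it the differences of Clk1, Clk4 and Snrnp70 turned from -0.41, -0.87 and -0.67 to 0.61, 0.34 and 0.51. Replicate 3 was also the Mef2c-deficient array with the highest summed myeloid and dendritic markers, and their part in this pattern was not tested.

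Across arrays, the splicing genes as a group were lower in each Mef2c-deficient sample. The median over the 72 genes, relative to the control mean, was -0.60, -0.52 and -0.69 in Mef2c-deficient replicates 1 to 3, and -0.01, -0.05 and 0.06 in controls, while the medians over all genes tested were -0.37, -0.21 and -0.24 in Mef2c-deficient replicates. SR protein medians (-0.67, -0.83 and -1.07) and hnRNP medians (-0.59, -0.60 and -0.84) were lowest in replicate 3. The Prpf median was lowest in replicate 1 (-1.30, -0.48 and -0.92), as was that of SF3a and SF3b (-0.87, -0.74 and -0.49). Snrp medians were -0.23, -0.47 and 0.18 and Lsm medians -0.39, -0.68 and -0.03, so that in replicate 3 these groups were near the control level. Genes of mitosis and of DNA replication had larger shifts, with medians of -1.97 and -1.51. In these lists 21 and 19 of 23 tested genes each were lower at the unadjusted threshold (all genes tested: 20.9%). Their array medians were lowest in replicate 2 (-1.39, -2.79 and -1.87 for mitosis, -1.46, -2.18 and -1.22 for replication), and the part of cell division in the splicing results was not tested. In RNA from a sorted population, fewer cells of a kind and less RNA per cell cannot be told apart.

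**Figure D5:**
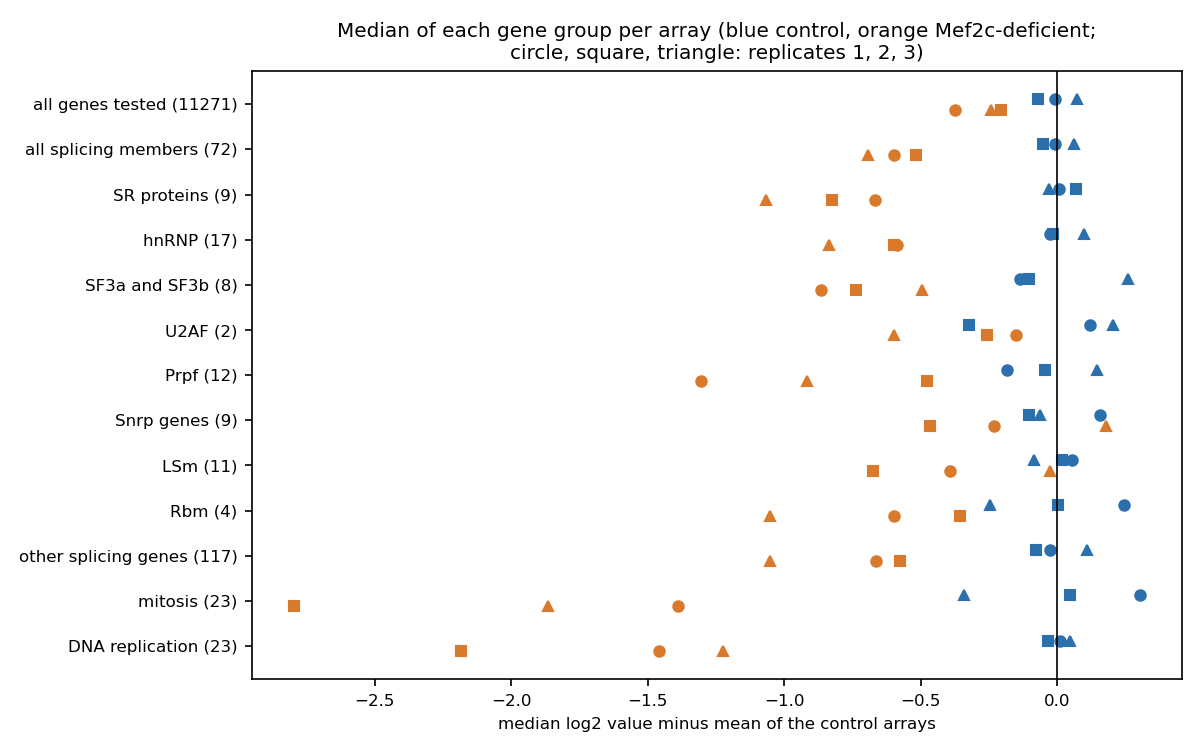
Median log2 level of each gene group on each array, with every gene set to a control mean of 0 (horizontal axis, blue control, orange Mef2c-deficient, circle, square and triangle for replicates 1, 2 and 3), and the number of genes tested in brackets. The 3 Mef2c-deficient arrays lie at -0.69 to -0.52 for all 72 splicing genes, at -1.07 to -0.67 for SR proteins, and at -0.47 to 0.18 for Snrp genes, where they overlap the controls.

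Splicing genes outside the naming rule were read from a list of further spliceosome subunits and regulators, of which 117 were tested. The mean was lower in 108 and higher in 9, and 49 (41.9%) were lower and 3 higher at the unadjusted threshold, against 20.9% and 5.32% of all genes, with 0 past the adjusted one. Their median was -0.82, or -0.47 relative to all genes, and 92 to 100 of the 117 means were lower after the further scalings. The number called lower became 21 after quantile normalization, 14 after cyclic loess, 26 after centring on the kept probe sets and 14 after centring on the genes tested. Of all genes, 11.1%, 10.2%, 10.7% and 6.48% were called lower in the same order. The number lower at the unadjusted threshold was 6 of 10 for U2 and branch site genes, 8 of 14 for U5 and tri-snRNP genes, 6 of 16 for the Prp19 complex and its partners, 2 of 7 for second step and release factors, 2 of 8 for the minor spliceosome, 5 of 9 for the exon junction and cap-binding group, 3 of 18 for SR-related proteins and SR kinases, 10 of 20 for other regulators, 6 of 11 for SMN and Cajal body genes, and 1 of 4 for U1 and LUC7 genes. The medians of these groups ran from -1.08 (other regulators) to -0.62 (second step and release), all below that of all genes.

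Named examples came from several of these groups. Coil, the marker protein of Cajal bodies, where spliceosomal particles mature, was 9.52, 9.12 and 9.32 in controls and 7.44, 7.88 and 7.19 in Mef2c-deficient samples. Its difference of -1.82 ± 0.30 (adjusted p = 0.0769) left more than 1 log2 unit between the groups if the base is 2. Mbnl3, a muscleblind-type regulator, differed by -1.50 ± 0.29 (adjusted p = 0.0861), with 11.87, 11.89 and 12.31 in controls and 10.31, 10.47 and 10.79 in Mef2c-deficient samples. Ddx46, the helicase that acts when the U2 particle binds, differed by -1.48 ± 0.36, and Txnl4a, a small U5 protein, by -1.13 ± 0.28. Pdcd7, of the minor spliceosome, differed by -1.44 and Slu7, which helps choose the end of the intron, by -1.68. The adjusted p of these 4 genes was 0.0975 to 0.109. Of the 3 genes higher at the unadjusted threshold, Eif4a3, the helicase anchoring the exon junction complex, was 8.19, 8.30 and 7.68 in controls and 9.63, 8.72 and 8.66 in Mef2c-deficient samples (difference 0.95 ± 0.37). Luc7l and Mbnl2 differed by 0.80 ± 0.34 and 0.78 ± 0.33, also with no overlap.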

How the data were processed

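Gene expression in sorted pre-B cells was measured on Affymetrix mouse GeneChip arrays, with 3 arrays per genotype. The authors deposited 1 table of linear intensity values for 23913 probe sets. Per the study's methods it came from robust multiarray averaging (background adjustment, quantile normalization and probe summarisation), differential expression was assessed with limma, and probe sets absent or marginal on most arrays were excluded. Its tool versions were not given in the sources used here. Values ran from 3.33 to 2144602, and 2.00% exceeded 65535, the ceiling of a 16-bit scanner, so the base used to leave the log scale (2 or e) is not settled. Values above that ceiling make base e the likelier of these, and the log2 differences given on base 2 would then be too large. Array number limits the precision, and dim probe sets are compressed towards background.

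Values were log2-transformed without an offset. Probe sets were named from the platform annotation, which can be old: 17689 had 1 symbol, 524 several and 5699 none listed, and 17538 matched RefSeq with 0 symbols changed. Probe sets with a mean log2 above the 40th percentile were kept and the brightest stood for a gene. Mef2c-deficient and control arrays were then compared by limma 3.58.1, run in R 4.3.3 (group as the only term, eBayes, two-sided), with Benjamini-Hochberg adjustment over 11271 genes and a threshold of 0.05. The test was checked on simulated independent normal values with 200 changed genes. These had no general shift, brightness trend or correlation between arrays, so the check does not cover those features of the data. Splicing genes and all lists were chosen with earlier results of these data known. Values were given for members with the 4 smallest p in each role group, the most positive difference in each, members with discordant probe sets and 2 further splicing genes per subgroup; every other tested member has at least its difference, and genes described further outside this rule (Srsf5, Snrpe, Prpf8, Mbnl2, Eif4a3 and genes with a single divergent array among them) were chosen after their values were seen.

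Alternatives covered the filter, the scaling, the choice of probe set, an offset of 16, variance models, array weights, the methods' unpaired t-test, leaving out arrays and a replicate block, with 2 of them (centring on the genes tested, leaving out both arrays numbered 3) chosen after seeing the data. Deviations from the group means were correlated between arrays of equal replicate number (over genes, r of 0.348, 0.226 and 0.373, against -0.309 to 0.129 for other pairs). The meaning of a number is not in the labels, so the main fit was unpaired and the replicate block is an alternative. In each group the array numbered 3 also had the highest dendritic and neutrophil marker sums. The source of the correlation was not tested. Mef2c and some other genes are not reported here.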

Additional observations from a re-analysis of the deposited data

How the results depend on the processing

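The number of splicing genes lower at the unadjusted threshold (26) was 12 after quantile normalization, 5 after cyclic loess, 13 after centring on the kept probe sets and 7 after centring on the genes tested. It was 16 to 28 (22.2% to 38.9%) when each array was left out, where 12.3% to 23.8% of all genes were lower and 2.15% to 7.01% higher. The 16 were found without control replicate 1, where the share of all genes lower was 12.3%. The number higher (0) was 1 after cyclic loess and with the methods' t-test, 2 and 3 after the respective centrings, and 0 to 1 leaving out each array. Array weights gave 8 of 72 splicing genes past the adjusted threshold (Hnrnpdl, Prpf18, Prpf4b, Sf3a1, Snrpa1, Srsf10, Srsf4 and Srsf9). This share is similar to that of all genes, 1154 of 11271. Leaving out each array gave 0 to 1, the 1 being Hnrnpdl without Mef2c-deficient replicate 3, where 241 of 11260 genes passed. The median difference (-0.69) was -0.38, -0.27, -0.40 and -0.23 under these scalings in the same order, -0.48 with base e, -0.49 without both arrays numbered 3, and -0.73 to -0.57 leaving out each array. Relative to all genes (-0.33) it was -0.76 without a filter, -0.14 with the filter at the 60th percentile, -0.23 after cyclic loess, with base e and without both arrays numbered 3, and -0.36 to -0.28 leaving out each array. The number of further splicing genes lower (49) was 21, 14, 26 and 14 under the scalings. Leaving out each array gave 29 to 52, with 29 without control replicate 3, where 12.5% of all genes were lower. The number was also 29 without cross-hybridising probe sets, a setting that tests fewer genes (8859 in all, 58 of the splicing genes by name). Sf3a1, whose only probe set is of this kind, was not tested there. Of those 58 genes, 36.2% were lower at the unadjusted threshold, against 20.5% of all genes tested. The cause of these shifts was not tested.

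With the replicate block for a possible pairing, 26 splicing genes were lower (25 of them shared with the unpaired fit), with Prpf4 gained and Hnrnpm lost. In that fit 0 were higher and 0 past the adjusted threshold. Further splicing genes lower numbered 47. Of all genes, 0 instead of 2 passed the adjusted threshold, and 23.1% were lower and 6.72% higher at the unadjusted one. Under at least 1 of all settings, 25 of the 72 splicing genes changed direction, 19 of them under a further scaling, and 3 without Mef2c-deficient replicate 3 (Prpf39, Snrpd3 and Srsf5). Among the genes chosen by the stated rule, direction reversed in 6: Hnrnpk with array weights (-0.061) and without both arrays numbered 3 (-0.037), Lsm1 without both (-0.10), Sf3a2 after quantile normalization (0.095), cyclic loess (0.26), both centrings (0.010 and 0.18), array weights (0.10) and without single arrays (-0.62 to 0.20, positive without control replicate 3), Srsf2 after cyclic loess (0.077) and centring on the genes tested (0.12), U2af1 after the same (0.084 and 0.030), and U2af2 after quantile normalization (0.14), cyclic loess (0.29), both centrings (0.054 and 0.22), without single arrays (-0.63 to 0.18, positive without control replicate 3) and without both arrays numbered 3 (0.16). Dim genes such as Snrpn and Hnrnpdl in Mef2c-deficient samples lie near the filter level, where background limits the size of a difference.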
